A study of Mus musculus with 6 samples.

Results

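The EGF family of ligands and the ERBB receptors was followed in mouse ovarian tumours with an induced B isoform of the progesterone receptor, with and without a blocker of that receptor. The set comprised 10 genes chosen by name, the 6 ligand genes Egf, Tgfa, Hbegf, Ereg, Btc and Nrg1 and the 4 receptor genes Egfr, Erbb2, Erbb3 and Erbb4, out of 21874 genes named on the array. All 10 were measured, by 12 probes of 37932. Tumour RNA from placebo-treated mice (3 arrays) and from RU486-treated mice (3 arrays) was hybridised to single-colour arrays with Cy3. Both groups carried the genotype Pgrcre/+mPgrLsL/+ of the sample labels (Pgrcre/+PgrBLsL/+ in the series text), in which Cre is made from the Pgr locus, so that the induced receptor is limited to cells that have used that locus. Each mouse bore a tumour 0.5 to 1 cm across and had a chronic-release pellet of placebo or of RU486 for 24 h. RU486 (mifepristone) is an antagonist of the progesterone receptor and also of the glucocorticoid receptor. Mouse age is not stated, and nothing says that each array holds another mouse, so p-values measure the spread between these samples, which may be technical.

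The ligands are made as membrane-bound precursors that proteases of the ADAM family cut free. They bind ERBB receptors, which then pair and signal through RAS and ERK and through PI3K and AKT. EGF and TGF-alpha bind EGFR, heparin-binding EGF (Hbegf), betacellulin (Btc) and epiregulin (Ereg) bind EGFR and ERBB4, and neuregulin 1 (Nrg1) binds ERBB3 and ERBB4. ERBB2 has no known ligand of its own and serves as the shared partner, and ERBB3 has a weak kinase. In the ovary, luteinizing hormone induces epiregulin, betacellulin and amphiregulin in the follicle, where they drive expansion of the cumulus, and the progesterone receptor takes part in ovulation.

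The deposited values are scores. Each probe was centred to a mean of 0 and scaled to an SD of 1 over the 6 arrays, as the values show, so that neither brightness nor fold change can be recovered and levels of different genes cannot be compared. Higher scores are read here as brighter probes. The standardised difference subtracts a gene's mean placebo score from its mean RU486 score, in SDs of its probe over the 6 arrays. In the main fit it cannot pass 1.83 in size. Alternatives that leave out, weight or renormalise arrays are not rescaled and can pass that bound. In a gene with 1 probe the 2 group means are equal in size and opposite in sign. Array medians lay between -0.384 and 0.212, and 0 pairs of arrays held identical values. Since the scale keeps no level, whether markers of ovarian tissue are present could not be read from these values. In bulk tumour, fewer cells of a type and less RNA per cell cannot be told apart.

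Hbegf, Tgfa and Erbb2 had lower scores on all 3 RU486 arrays than on any placebo array, and Btc had higher ones. No member passed the test over all genes, in which limma's ordinary statistic gave 0 of 10 members and 1 of 21874 genes (0.00457%) at an adjusted p under 0.05. At an unadjusted p under 0.05 there were 3 members, the 3 lower ones, where 12.3% of all genes were under that p (7.07% lower and 5.24% higher). Groups did not overlap in 3 lower members and 1 higher member, where the background was 22% of genes (10.8% lower and 11.2% higher). By role, 2 of 6 ligands were lower and 1 higher without overlap, against 1 of 4 receptors, which was lower. The median difference was 0.067 over the ligands, 0.234 over the receptors and -0.058 over all genes, and 5 of the 10 differences were negative. Both medians changed sign with the arrays used. The ligand median was -0.298 without placebo array 1, -0.186 without RU486 array 2 and -0.359 with array weights, and the receptor median was -0.314 without RU486 array 1.

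Reference promoter windows are shown for Tgfa and Erbb2, 2 of the 3 lower members, and for Btc, which was higher. They allow the upstream sequence of genes that parted in opposite directions to be compared. They come from RefSeq, build GRCm38.p6, and run 5′ to 3′ on the strand of the gene from 250 bases before to 50 bases after the start. Windows were used for 6 of the 10 members, Egf, Tgfa, Btc, Egfr, Erbb2 and Erbb4, with 7 windows in all. For Hbegf, the third lower member, and for Ereg, Nrg1 and Erbb3 no window was used. Capitals mark GC boxes.
Tgfa, chr6:86194972-86195271, plus strand: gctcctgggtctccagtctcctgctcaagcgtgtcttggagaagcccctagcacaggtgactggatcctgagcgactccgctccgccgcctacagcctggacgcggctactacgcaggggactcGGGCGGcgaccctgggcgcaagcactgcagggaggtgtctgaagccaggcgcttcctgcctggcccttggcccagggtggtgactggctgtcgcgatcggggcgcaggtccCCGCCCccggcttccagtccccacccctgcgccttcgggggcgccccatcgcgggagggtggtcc
Erbb2, chr11:98412234-98412533, plus strand: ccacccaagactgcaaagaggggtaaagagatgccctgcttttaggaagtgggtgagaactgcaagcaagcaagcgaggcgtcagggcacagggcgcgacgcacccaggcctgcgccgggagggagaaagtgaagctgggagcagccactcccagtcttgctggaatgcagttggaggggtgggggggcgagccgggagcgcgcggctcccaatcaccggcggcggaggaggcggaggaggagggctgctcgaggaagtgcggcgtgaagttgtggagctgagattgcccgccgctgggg
Btc, chr5:91402945-91403244, minus strand: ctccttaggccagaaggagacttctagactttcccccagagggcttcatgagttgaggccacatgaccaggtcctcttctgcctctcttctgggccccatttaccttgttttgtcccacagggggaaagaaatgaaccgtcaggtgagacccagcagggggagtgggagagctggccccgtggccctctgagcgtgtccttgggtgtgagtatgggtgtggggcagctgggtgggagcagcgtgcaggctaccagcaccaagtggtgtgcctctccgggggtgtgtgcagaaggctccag
Of their bases 70.7% in Tgfa, 66.0% in Erbb2 and 60.3% in Btc were G or C, where the median of all 32851 windows was 52.7%. Searched on both strands were the GC box GGGCGG, the half-site AGAACA that progesterone and glucocorticoid receptors share, the AP-1 site TGACTCA and the E2F site TTTGGCGC, and no matches overlapped. GC boxes started at -126 on the plus strand and -15 on the minus strand of the Tgfa window, counted from the start site, and at -9 on the minus strand of the Egfr window. Of all windows 35.7% held that motif. The half-site stood in 19.0% of all windows, the AP-1 site in 5.20% and the E2F site in 0.514%, and in 0 of the 7 members' windows. A match of letters is no binding site, and its absence from a short window says nothing of the factor.

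Hbegf, a heparin-binding ligand that is shed from the cell surface, had scores of 0.961, 0.496 and 1.2 on placebo arrays 1 to 3 and -0.842, -0.817 and -1.0 on RU486 arrays 1 to 3. The groups were far apart, and the 3 RU486 arrays lay close together (SD 0.100, n = 3, against 0.360 in placebo). Its difference was the most negative of the 10, at -1.77 (95% interval -2.37 to -1.17), and only 0.443% of all genes had a difference as low or lower. The p was 0.00119 before and 0.218 after adjustment over all genes in limma. Each of the 13 alternatives tried gave an unadjusted p under 0.05 and a negative difference for Hbegf, from -1.97 to -1.54. Its limma adjusted p ran from 0.0803 with array weights to 0.590 with the replicate number as a block. Hbegf, Tgfa, Erbb2 and Btc have 1 probe each, so the first-probe and rescaling alternatives repeat their main fit by construction. These add nothing to the counts of alternatives given for them. With eBayes moderation all 10 members had the same SE, 0.757.

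Tgfa, the gene of transforming growth factor alpha, scored 0.0777, 0.916 and 1.46 on the placebo arrays and -0.872, -0.883 and -0.698 on the RU486 arrays. Placebo array 1 lay nearest to the RU486 arrays, and the spread was mostly among the placebo arrays (SD 0.696 against 0.104, n = 3 each). The difference was -1.64 (95% interval -2.76 to -0.507, limma adjusted p = 0.358) and became -2.0 without placebo array 1. Its unadjusted limma p stayed under 0.05 in 10 of the 13 alternatives and rose to 0.0556 without placebo array 2, 0.0544 without RU486 array 1 and 0.0547 without RU486 array 2.

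Btc, the betacellulin gene, scored -0.751, -0.898 and -0.571 on the placebo arrays and 1.37, 1.16 and -0.305 on the RU486 arrays. It was thus low on all placebo arrays, high on RU486 arrays 1 and 2, and only just above the placebo range on RU486 array 3. The difference was 1.48 (95% interval -0.0045 to 2.96), with a limma p of 0.0504 before and 0.390 after adjustment. Without RU486 array 3 it was 2.0, with a limma p of 0.000830 before and 0.361 after adjustment, and array weights gave an unadjusted p of 0.0398. The other 11 alternatives gave a positive difference and a p above 0.05.

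Nrg1 and Ereg had their highest score on RU486 array 1, like Btc, but their groups overlapped. Nrg1, the neuregulin gene, scored -0.553, -0.596 and -0.388 on the placebo arrays and 1.96, 0.164 and -0.581 on the RU486 arrays. Its difference of 1.03 (95% interval -1.07 to 3.12, limma adjusted p = 0.658) became 0.304 without RU486 array 1. Ereg, the epiregulin gene, scored -0.934, -0.523 and 0.358 on the placebo arrays and 1.64, 0.395 and -0.937 on the RU486 arrays, so that the RU486 group spanned the whole placebo range. Its difference was 0.733 (95% interval -1.59 to 3.05, adjusted p = 0.768), and 0.0954 without RU486 array 1. Without RU486 array 3, the array that lay within or below the placebo range, the remaining arrays of both genes did not overlap. Their differences were then 1.57 for Nrg1 and 1.38 for Ereg, with a limma p of 0.101 and 0.133 (adjusted p = 0.624 for both). The share of all genes without overlap on those arrays was not counted.

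Egf, the founding ligand, showed no separation. Its scores were -0.594, 1.39 and 0.0987 on the placebo arrays and -1.49, 0.685 and -0.0939 on the RU486 arrays, with the lowest array in one group and the highest in the other. The difference was -0.599 (95% interval -2.99 to 1.80, limma adjusted p = 0.811), and it ran from -1.68 with array weights to -0.0042 without RU486 array 1.

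**Figure D1:**
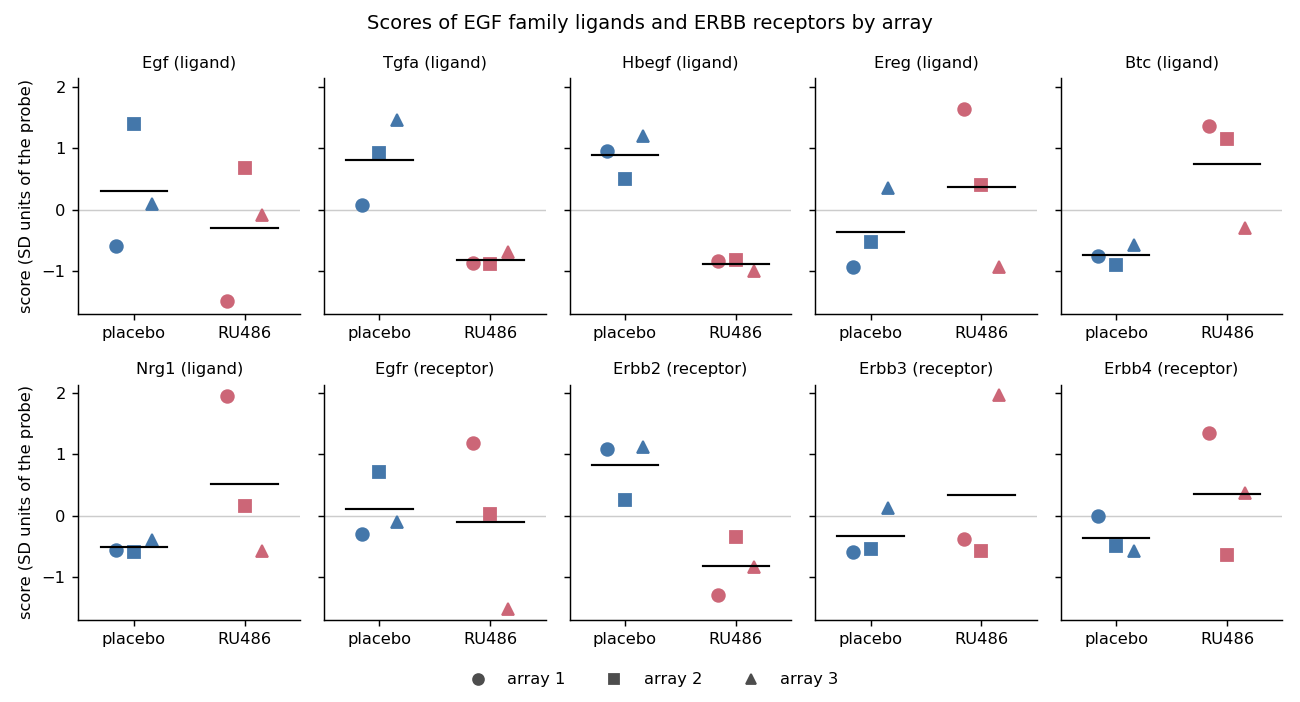
Score of each of the 10 genes (y axis, in SDs of the probe over the 6 arrays, probes of a gene averaged) on the 3 placebo and 3 RU486 arrays, with array numbers as symbols and group means as bars. Hbegf, Tgfa and Erbb2 have all RU486 arrays below all placebo arrays, Btc has them above, and the other 6 genes overlap.

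Among the receptors, Erbb2 alone had groups that did not overlap. Erbb2, the shared signalling partner, scored 1.10, 0.262 and 1.12 on the placebo arrays and -1.29, -0.353 and -0.832 on the RU486 arrays. Placebo array 2 and RU486 array 2 lay nearest to each other, and the 2 groups had like spread (SD 0.488 and 0.469, n = 3 each). The difference was -1.65 (95% interval -2.73 to -0.566), with a limma p of 0.0134 before and 0.335 after adjustment. Over the alternatives it ran from -1.93 to -1.42, with an unadjusted p under 0.05 in 12 of 13 and of 0.0903 with the replicate block.

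Egfr, the receptor of most of these ligands, was measured by 2 probes. Averaged, they scored -0.299, 0.710 and -0.102 on the placebo arrays and 1.19, 0.0296 and -1.52 on the RU486 arrays, and the RU486 arrays held both the highest and the lowest value. The difference was -0.206 (95% interval -2.55 to 2.14, limma adjusted p = 0.933). Its direction was not settled, since it was 0.504 without RU486 array 3, 0.0972 without placebo array 2 and 0.340 with the first probe only.

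The Egfr probes are annotated to different RefSeq transcripts. Probe A_52_P106259, annotated to the transcript of the full-length receptor, had a difference of 0.340, and probe A_55_P1956863, annotated to a shorter transcript that codes for a receptor without the kinase, had -0.753 (limma adjusted p = 0.886 and 0.752 over all probes). Both were highest on RU486 array 1 and lowest on RU486 array 3, and they differed most on placebo array 1, at -0.951 and 0.353. Whether each probe tells the transcripts apart was not tested.

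Erbb3, the neuregulin receptor with the weak kinase, scored -0.598, -0.537 and 0.123 on the placebo arrays and -0.385, -0.569 and 1.97 on the RU486 arrays. RU486 array 3 stood far above the other 5 arrays. The difference was 0.675 (95% interval -1.68 to 3.03, limma adjusted p = 0.787) and turned to -0.139 without that array.

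Erbb4, which binds neuregulins and several EGF ligands, averaged -0.0049, -0.486 and -0.584 on the placebo arrays and 1.35, -0.641 and 0.370 on the RU486 arrays. The difference was 0.717 (95% interval -0.952 to 2.39, limma adjusted p = 0.700), and 0.223 without RU486 array 1. Its 2 probes had differences of 0.536 and 0.897 and disagreed over RU486 array 3, where probe A_55_P2119888 scored 1.30 and probe A_55_P2119892 scored -0.555. The second of these had 2.0 on RU486 array 1, where the first had 0.697.

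**Figure D2:**
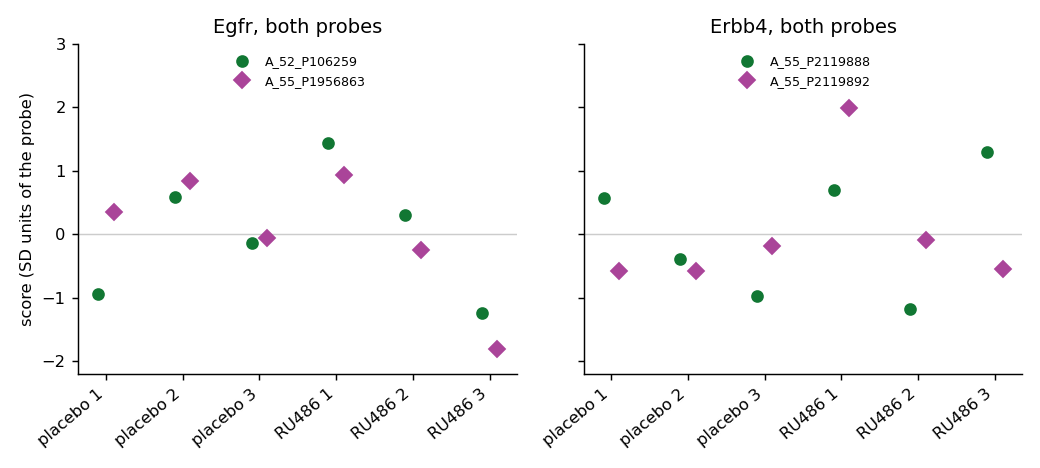
Scores (y axis, in SDs of the probe) of both probes of Egfr and of Erbb4 on each of the 6 arrays, one symbol per probe. The Egfr probes share their highest and lowest array, whereas the Erbb4 probes part on RU486 array 3, at 1.30 and -0.555.

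Ordered by difference, the members ran from Hbegf, Erbb2 and Tgfa at the negative end through Egf and Egfr to Erbb3, Erbb4, Ereg, Nrg1 and Btc at the positive end. The intervals of neighbouring genes overlapped throughout this order, and those of Hbegf, Erbb2 and Tgfa did not reach 0. With 3 arrays against 3, an exact two-sided permutation test of 1 gene cannot give less than 0.1, and Hbegf, Tgfa, Erbb2 and Btc each had that value. In limma, 0 of the 12 probes passed at an adjusted p under 0.05 (0.00527% of all probes), 3 had an unadjusted p under 0.05 (11.7% of all probes) and 4 had groups that did not overlap (22.1% of all probes).

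**Figure D3:**
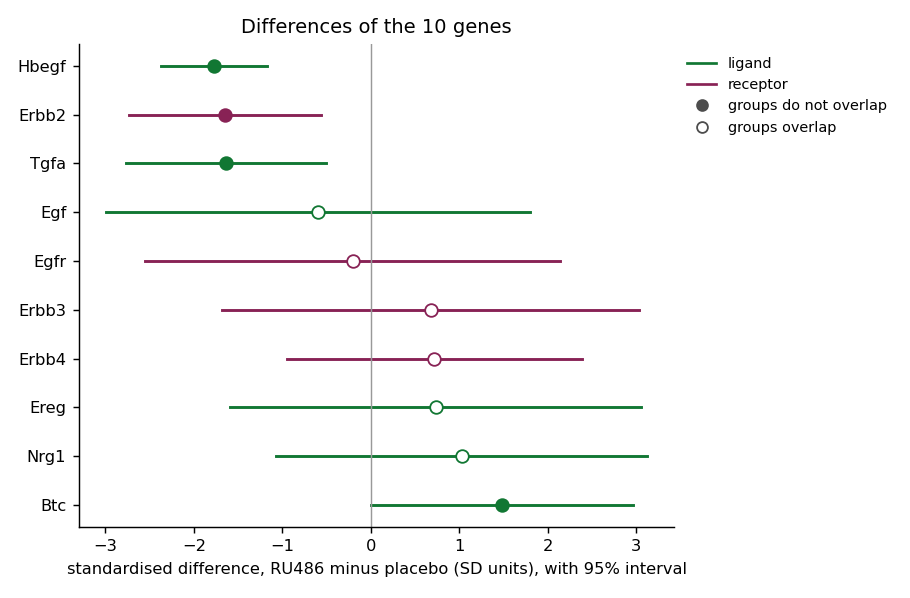
Standardised difference of each gene (x axis, RU486 minus placebo, in SDs of the probe) with its 95% interval from limma, ligands and receptors in separate colours, filled where the groups do not overlap. The intervals of Hbegf, Erbb2 and Tgfa lie below 0, that of Btc reaches from -0.0045 to 2.96, and the other 6 span 0.

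Some members had score profiles over the arrays that resembled each other. Likeness was measured as the root mean square difference of 2 score profiles over the 6 arrays, with no test, and the arrays and their scaling are shared by all genes. Hbegf and Erbb2 were the closest pair of members, at 0.296, and Hbegf and Tgfa stood at 0.432. Ereg and Nrg1 formed the next pair, at 0.405, with Btc and Nrg1 at 0.512. For comparison, the median distance from Hbegf to all genes outside the set was 1.24, and from Nrg1 it was 1.37. The genes of each pair named here differ in the same direction, and their nearness follows in part from that. Every member had a gene outside the set nearer to it than any other member. With far more genes outside the set than in it, that was to be foreseen and says nothing of the family. Outside the set, the gene nearest to Hbegf was E2f7, an E2F family gene of the cell cycle, at 0.0578, the gene nearest to Tgfa was Dusp5, a phosphatase gene of the ERK pathway, at 0.0763, and the gene nearest to Erbb2 was the zinc transporter gene Slc39a13, at 0.0625. The nearest genes to Nrg1, Btc and Ereg were Psg25 (0.0274), Hesx1 (0.0370) and Phactr1 (0.0653). For Egf, Egfr, Erbb3 and Erbb4 they were Tnfrsf12a (0.0783), 5330434G04Rik (0.211), Gm12633 (0.0498) and Filip1l (0.0889).

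Markers of other cell types and of the cell cycle were measured beside the members, and in limma 0 of them passed over all genes. Groups did not overlap in 6 of 6 proliferating cell markers (Mki67, Top2a, Cdk1, Ccnb2, Mcm5 and Pcna), all lower, where the background was 10.8% of genes lower. Their adjusted p ran from 0.236 for Mcm5 to 0.390 for Top2a, with list means of 0.457, 0.626 and 1.44 on the placebo arrays and -0.882, -0.583 and -1.06 on the RU486 arrays. List means did not overlap either for neutrophil markers, at 0.142 to 0.619 in placebo and -0.682 to -0.265 with RU486, and 3 of 6 of these genes had separated groups. The same held for list means of T and B cells (0.206 to 0.430 against -0.573 to -0.0638) and of skeletal muscle (-0.0793 to 0.531 against -0.421 to -0.265). In these lists 1 of 5 and 1 of 6 genes had separated groups, shares near the 22% of all genes. List means overlapped for granulosa (-0.689 to 0.790 against -0.927 to 0.925), steroidogenic (-0.811 to 0.0437 against -0.602 to 0.918), stromal (-0.489 to 1.42 against -0.725 to 0.430), epithelial (-0.324 to 0.736 against -0.662 to 0.347), endothelial, macrophage and adipocyte markers. Among lists with overlapping means, groups were separated for Myh11 (stromal, -1.78), Vwf (endothelial, -1.50) and Fabp4 (adipocyte, -1.29), all lower. These were 1 of 6, 1 of 6 and 1 of 5 genes of their lists, beside 10.8% of all genes. The part of proliferating, blood, vessel, fat or muscle cells in the values of Hbegf, Tgfa, Erbb2 and Btc was not tested.

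**Figure D4:**
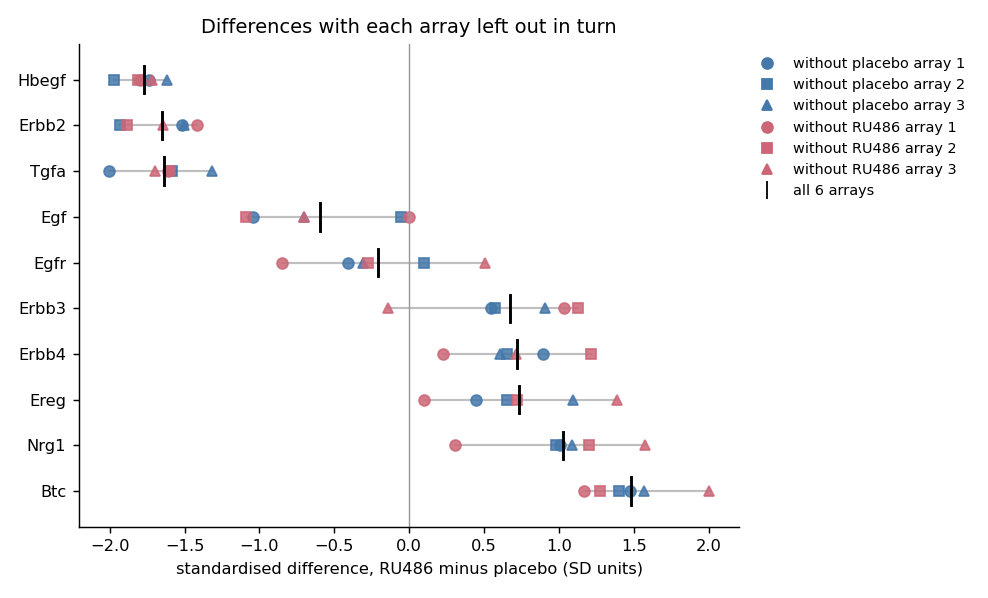
Standardised difference of each gene (x axis, in SDs of the probe) with each of the 6 arrays left out in turn (symbols) and with all arrays (bars). Hbegf, Tgfa and Erbb2 are at most -1.31 and Btc at least 1.17, whereas Egfr and Erbb3 fall on both sides of 0.

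Of the remaining ligands of the family, Epgn, Nrg2, Nrg3 and Nrg4 were measured and 0 of 4 passed over all genes. Nrg3, a ligand of ERBB4, scored -0.365, -0.780 and -1.10 on the placebo arrays and 1.03, -0.175 and 1.40 on the RU486 arrays. Its groups did not overlap, with a difference of 1.5 and a limma p of 0.0450 before and 0.390 after adjustment. Nrg4 stood at -0.940, Nrg2 at -0.821 and the epigen gene Epgn at 0.437, each with overlapping groups. Single arrays carried much of these values, since Nrg2 was -0.121 and Epgn -0.183 without placebo array 1, and Nrg4 was -0.410 without placebo array 2.

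Genes that release or anchor the ligands had a median difference of -0.913 over 13 genes, 10 of them negative, beside -0.058 over all genes. Medians of cell type marker lists were negative too for neutrophil (-1.14), endothelial (-1.10), adipocyte (-0.805) and skeletal muscle markers (-0.653). They were positive for granulosa (0.172) and steroidogenic markers (0.746). A negative median was thus not particular to the pathway lists. In limma 0 passed over all genes, and at an unadjusted p under 0.05 there were 4 lower and 0 higher, where 7.07% of all genes were lower. Adam10, a sheddase of Egf and Btc, scored 0.567, 0.967 and 1.07 on the placebo arrays and -1.34, -0.656 and -0.607 on the RU486 arrays, a difference of -1.74 (limma adjusted p = 0.247). The related genes Adam9 and Adam12 stood at -1.71 and -1.49, and Rhbdf1, which codes for an inactive rhomboid protein that serves ADAM17, at -1.55, all 3 with separated groups. Adam17 itself, the main sheddase of Tgfa, Hbegf and Ereg, had overlapping groups and a difference of -0.202, which was 0.553 with array weights, 0.549 without placebo array 1 and 0.190 without RU486 array 1. Rhbdf2, a partner of ADAM17, stood at 1.14 with overlapping groups, and at 0.511 without RU486 array 2.

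Inhibitors of the receptors had a median of -0.477 over 11 genes, which leaving out 1 array moved to -1.01 (placebo array 1), -1.07 (RU486 array 2), -0.254 (placebo array 3) or -0.230 (RU486 array 1). Of them 0 passed over all genes, and an unadjusted p under 0.05 was reached by 1 lower and 0 higher genes, a share near the 7.07% of all genes that were lower at that p. That gene was Errfi1, which codes for MIG6, a direct inhibitor of EGFR and ERBB2 kinases, with scores of 1.34, 0.517 and 0.699 on the placebo arrays and -0.526, -0.785 and -1.25 on the RU486 arrays. Its difference was -1.70 (limma adjusted p = 0.282). Lrig1, which codes for a membrane protein that promotes loss of the receptors, stood at -1.42 with separated groups (limma adjusted p = 0.395). The Lrig1 groups nearly touched, at -0.375 on placebo array 1 and -0.484 on RU486 array 1. Cbl, a ubiquitin ligase gene, and Lrig3 stood at -1.13 and -0.803 with overlapping groups. Lrig3 was -0.304 without RU486 array 1.

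Adaptors and the RAS to ERK core showed no common direction, with 11 of 19 differences positive and a median of 0.179, which array weights turned to -0.497 and leaving out placebo array 1 to -0.483, and which was -0.0663 without RU486 array 2. In limma 0 of them passed over all genes, and 1 lower gene and 0 higher ones had an unadjusted p under 0.05, where 7.07% of all genes were lower. Sos2, a RAS exchange factor gene, stood at -1.60 (adjusted p = 0.390), its relative Sos1 at 1.32, the adaptor genes Shc1 and Grb2 at -1.33 and 0.567, and the phosphatase gene Ptpn11 at -1.22. Sos1, Shc1 and Grb2 had overlapping groups. Grb2 was -0.289 with array weights, and Ptpn11 -0.557 without RU486 array 1. Of the PI3K and AKT genes, 8 of 9 were negative, with a median of -0.708 and 0 passing over all genes. That median was -0.265 without placebo array 3, -0.368 without RU486 array 1, -1.165 without placebo array 1, -1.29 without RU486 array 2, -1.11 with array weights and -0.375 with the first probe. Akt1, the kinase gene, was the 1 gene at an unadjusted p under 0.05, at -1.70 (limma adjusted p = 0.285), and 1 of 9 is near the 7.07% of all genes lower at that p. Pik3cb, Pdpk1 and Akt2 stood at -1.46, -1.39 and -0.847, and Akt2 at -0.368 without RU486 array 1.

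Genes that ERK signalling is known to induce had a median of -0.808 over 23 genes, 19 of them negative, and of -0.502 without placebo array 3. In limma 0 passed over all genes. An unadjusted p under 0.05 was reached by 6 lower and 0 higher genes, where 7.07% of all genes were lower. Groups did not overlap in 7 of the 23, all lower, where the background was 10.8%. Ccnd1, the cyclin D1 gene, stood at -1.75 (adjusted p = 0.247), Dusp5 at -1.60, the immediate early gene Ier2 at -1.59 and Spred2, an inhibitor of RAS signalling, at -1.57, all with separated groups. Dusp6 and Spry4, which code for feedback inhibitors of the pathway, had overlapping groups and differences near 0, at -0.127 and -0.241. Dusp6 was positive, from 0.233 to 0.288, without placebo array 2, placebo array 3 or RU486 array 3, and Spry4 was 0.483 with array weights and 0.632 without placebo array 3.

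The list of genes of cumulus expansion and ovulation, which follicular EGF ligands induce or accompany, had a median of -0.685 over 8 genes, which was -1.13 without placebo array 2 and -0.243 with array weights. In limma 0 passed over all genes, and 2 lower and 0 higher genes had an unadjusted p under 0.05, where 7.07% of all genes were lower. These were the protease gene Adamts1 at -1.65 and its substrate gene Vcan, the versican gene, at -1.64 (adjusted p = 0.332 and 0.347). Tnfaip6 (-1.38), Ptgs2 (-0.839) and Has2 (-0.531), classic genes of the expanding cumulus, and Cd44 (1.16), which codes for the hyaluronan receptor, had overlapping groups. Has2 was 0.335 without placebo array 1, where it scored 2.0, and 0.180 with array weights, and Ptgs2 was -0.30 without RU486 array 3. Pgr, the progesterone receptor gene, stood at 1.01 with overlapping groups, and at 0.432 without RU486 array 2. Its probes disagreed, since A_55_P1985925 had a difference of 1.6 with separated groups and A_55_P2095663 had 0.419 with overlapping groups. Their limma adjusted p was 0.396 and 0.855 over all probes. Whether either probe also reads the transcript of the induced receptor was not tested.

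**Figure D5:**
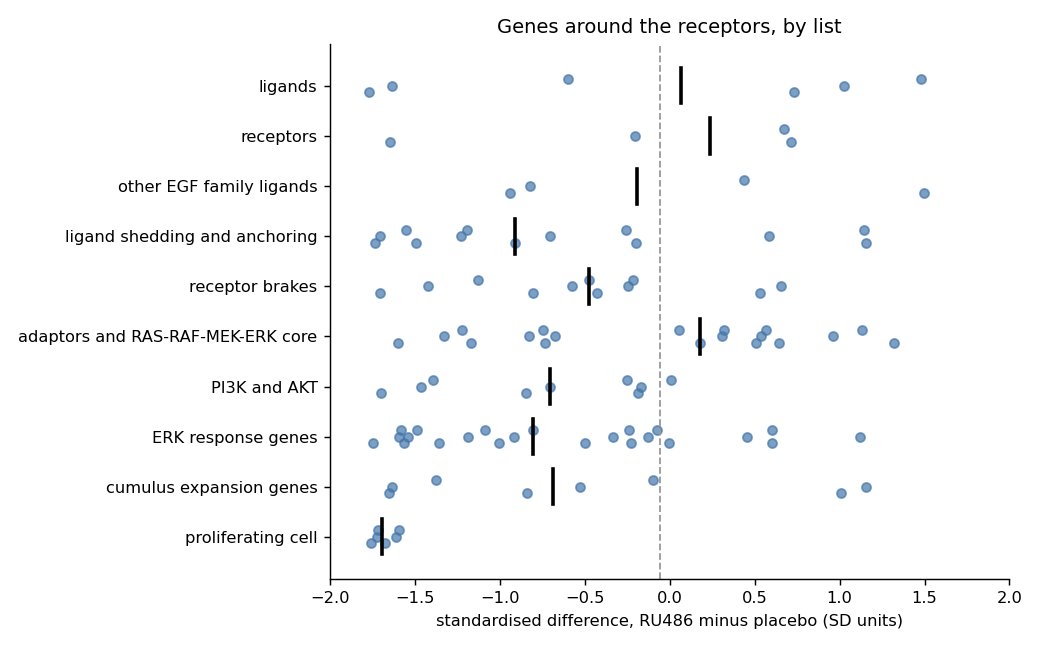
Standardised differences (x axis, in SDs of the probe) of the measured genes of each list (points), with the list median as a bar and the median of all 21874 genes, -0.058, as a dashed line. Ligands, receptors and ERK response genes lie on both sides of 0, the last with a median of -0.808 and 4 of 23 positive. Proliferating cell markers are all negative, with a median of -1.70.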

How the data were processed

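Tumour RNA was measured on 6 single-colour Cy3 arrays, grouped by sample title into 3 placebo and 3 RU486. The deposited table holds 1 score per probe and array; from the values, every probe had a mean of 0 and an SD of 1 over the 6 arrays within rounding, and the largest score was 2.04. The submitters' processing notes name Partek. The background correction, the normalization, any probe filter and the scale before scaling were not given in the sources used here. Signal over background is unknown, and the number of arrays limits the precision.

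Platform annotation gave 1 gene symbol to 24903 probes and none to 13029; Entrez IDs of 24627 matched RefSeq (GRCm38.p6), which changed 0 symbols. Probes of a gene were averaged (21874 genes, 2646 with several probes). The fit per gene, over the 6 arrays and with treatment alone, used limma (version 3.58.1, R 4.3.3). Its ordinary statistic (4 residual degrees of freedom) gave two-sided p-values, SEs and 95% intervals, and Benjamini-Hochberg adjustment ran over all genes (threshold 0.05). In a gene with 1 probe the scaling ties the SE to the difference. The fit was tested on simulated data with independent genes and very large shifts, which says nothing of its power on these arrays.

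The members, the gene lists and the tests were chosen with earlier results of these data known. Named were all 10 members, the other family ligands, the 4 genes of smallest unadjusted p in each other list, a fixed panel, and for each member the gene of nearest profile; 1 list symbol (Nrdc) was matched through its older name Nrd1. Areg and some genes of the RAS, ERK and PI3K lists were not analysed here. Alternatives were eBayes moderation, median centring, quantile normalization, array weights, the first probe of a gene, rescaled gene means, the replicate number as a block, and each array left out.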

Additional observations from a re-analysis of the deposited data

How the results depend on the processing

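In limma, 0 members, 0 of their probes and 0 genes of the pathway lists passed an adjusted p of 0.05 under every alternative run for them. Over all genes 1 passed, 0 did with eBayes moderation, median centring, quantile normalization or the replicate block, 7 did with array weights, and from 1 to 3 did with an array left out. At an unadjusted p of 0.05 the 2694 genes became 5649 with array weights and 1534 with the replicate block, and from 1497 (without placebo array 3) to 3862 (without RU486 array 2) with an array left out. They were also 1572 without placebo array 2, 1623 without RU486 array 1 and 1735 without RU486 array 3. The members under that p numbered from 2 to 4, all lower except Btc. Array weights ranged from 0.342 (RU486 array 2) to 4.97 (placebo array 2).

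Reversed with array weights were Adam17 (0.553), Grb2 (-0.289), Spry4 (0.483) and Has2 (0.180), and with the first probe Egfr (0.340). With an array left out, differences ranged from -0.851 to 0.504 for Egfr, -0.139 to 1.13 for Erbb3, -0.183 to 1.22 for Epgn, -0.851 to 0.549 for Adam17, -0.982 to 0.335 for Has2, -0.925 to 0.288 for Dusp6 and -0.744 to 0.632 for Spry4. The cause was not tested. Median centring moved the median difference of all genes from -0.058 to 0.063, and no member changed sign with it. Deviations of same-numbered arrays from their group means correlated at 0.254, 0.0539 and -0.272. With 3 arrays per group these values cannot show whether same-numbered arrays were paired, and the sample titles give only the number. Background correction, a filter on dim probes and slide as a block were not run, since the scores keep no level and no source used here names slides.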
